A study of Mus musculus with 12 samples.

Results

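Chromatin accessibility was described at 8 genes of the erythroid programme, Klf1, Tal1, Zfpm1, Epor, Hbb-bt, Hbb-bs, Hba-a1 and Tfrc. An open chromatin region belonged to a gene when it overlapped the gene body (GENCODE M21 basic, mouse genome GRCm38) or the 20 kb on either side of it. By this rule 80 of 121336 regions were members, 31 at Zfpm1, 16 at Tal1, 8 each at Klf1 and Tfrc, 7 at Hba-a1 and 5 each at Epor and the neighbouring genes Hbb-bt and Hbb-bs, whose windows shared 4 of their 5 regions. Of the 80 regions, 7 lay within 500 bp of a start site of a member gene, 10 within 500 bp of a start site of another gene and 63 away from any start site. The question was whether regions at erythroid genes gain accessibility when PU.1 is low.

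Accessibility was measured by ATAC-seq, in which a transposase cuts open DNA, in bone marrow cells sorted from mice that were wild type (WT) or homozygous for a deletion of the upstream regulatory element of Spi1 (genotype UREd/d, called URE here). Both genotypes were young adult littermates on a C57BL/6 background. LSK denotes the Lin- Sca-1+ c-Kit+ fraction, rich in stem cells and early progenitors, and GMP the Lin- Sca-1- c-Kit+ granulocyte-monocyte progenitors with Fc gamma receptors. Each genotype gave 3 LSK and 3 GMP libraries, which form the groups WT-LSK, WT-GMP, URE-LSK and URE-GMP, and the study's methods give 3 mice per genotype and cell type. The element is an enhancer, and the Spi1 coding sequence itself was not deleted. The lineage antibodies of the sort included Ter119, a surface marker of later erythroid cells. In a bulk sample, fewer cells with an open region and less accessibility per cell cannot be told apart.

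Red cell development is driven by a small set of transcription factors. KLF1, TAL1 and FOG-1, the product of Zfpm1, act with GATA1 at the globin genes, the genes of haem synthesis and the erythropoietin receptor gene. PU.1 and GATA1 are known to oppose each other in blood progenitors, PU.1 towards the myeloid and lymphoid lineages and GATA1 towards the erythroid and megakaryocytic ones. Developing red cells take up iron through the transferrin receptor, which Tfrc encodes and which dividing cells of other kinds also carry.

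Total counts ranged from 23072701 to 62204826 per library, so that 1 count stood for 0.0173 to 0.0418 CPM (the count scaled to the library total, after TMM, an adjustment for library composition). The deleted element itself, chr2:91082790-91083700, had 39.4 ± 3.23 CPM across WT-LSK and 43.8 ± 2.31 CPM across WT-GMP (SD, n = 3), but at most 6 counts in any URE-LSK library and at most 2 in any URE-GMP library, in accordance with the genotype labels. The regions near 6 of 7 stem and progenitor markers summed to 483 to 506 CPM across WT-LSK and 342 to 406 CPM across WT-GMP, and those near 6 of 7 granulocyte-monocyte markers to 178 to 186 and 566 to 751 CPM. Across URE-GMP the stem and progenitor sum was 307 to 342 CPM, with 1 of 31 regions called higher and 10 lower than in WT-GMP. The granulocyte-monocyte sum was 895 to 920 CPM, with 6 of 27 higher and 0 lower. Over all regions 15.6% were higher and 24.1% lower in GMP. Across URE-LSK the stem and progenitor sum was 519 to 594 CPM, with 1 region higher and 1 lower than in WT-LSK. The granulocyte-monocyte sum in URE-LSK was 141 to 198 CPM, with 5 higher and 5 lower. Over all regions 13.6% were higher and 23.9% lower in LSK. The part of these marker differences in the genotype differences below was not tested. Of 6 erythroid markers, Car1 and Slc4a1 lacked a region and Ahsp was not matched to the annotation. The other 3 (Alas2, Rhag and Ermap) had 1 region each, with a summed level of 11.8 to 18.6 CPM across WT-LSK, 11.1 to 12.9 across URE-LSK, 5.69 to 9.03 across WT-GMP and 5.12 to 6.44 across URE-GMP. Among these 3, the region of Alas2, the erythroid enzyme that starts haem synthesis, had 0.367 to 1.43 CPM in WT-LSK libraries and 2.82 to 4.04 CPM in URE-LSK libraries, and that of Ermap had 2.60 to 3.02 and 0.523 to 0.876 CPM. The share of all counts that fell in promoter regions was 49.7% to 52.9% in the WT libraries and 53.7% to 55.2% in the URE libraries, and its part in the values below was not tested.

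7 stretches of the member regions are printed here because the results below turn on them. They were read from the GRCm38 forward strand, 5′ to 3′, and each is named by the distance of its region from the annotated 5′ end of the gene, with a plus sign for downstream. Capitals mark matches to a motif letter by letter on either strand, namely AGATAA (bound by GATA factors), the composite of CTG, 8 bases of any kind and AGATAA (bound by TAL1 together with GATA1, and containing the GATA motif), CAGCTG (an E-box), TGAGTCA (NF-E2 and AP-1), GAGGAAGT (PU.1) and AACCACA (RUNX). A match is a description of the letters and not a bound site.

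In the Klf1 intron (chr8:84904542-84904691), a region that was near background in LSK and open in URE-GMP holds an E-box and an NF-E2 motif.
Klf1 +2.7 kb: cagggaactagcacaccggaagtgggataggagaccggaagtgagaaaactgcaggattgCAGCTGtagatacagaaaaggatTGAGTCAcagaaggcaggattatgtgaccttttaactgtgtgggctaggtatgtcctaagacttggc
Upstream of Tal1 (chr4:115048295-115048444), a region with the composite motif was lower in URE.
Tal1 -7.9 kb: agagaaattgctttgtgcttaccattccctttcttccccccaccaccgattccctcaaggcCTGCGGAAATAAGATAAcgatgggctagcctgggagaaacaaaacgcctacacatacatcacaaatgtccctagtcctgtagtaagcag
In an intron of Zfpm1 (chr8:122319489-122319688), a region that was higher in URE-LSK holds an E-box, a GATA and a RUNX motif.
Zfpm1 +37.6 kb: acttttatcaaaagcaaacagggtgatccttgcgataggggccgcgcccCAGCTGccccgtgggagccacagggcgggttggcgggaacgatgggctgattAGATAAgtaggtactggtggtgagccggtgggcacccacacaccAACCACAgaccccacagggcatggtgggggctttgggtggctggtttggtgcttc
Downstream of Hbb-bt, 2 regions with the PU.1 motif were called lower in URE-GMP, and the second also in URE-LSK. The first (chr7:103809097-103809296) also holds a GATA motif, and the second (chr7:103812295-103812444) does not.
Hbb-bt +4.9 kb: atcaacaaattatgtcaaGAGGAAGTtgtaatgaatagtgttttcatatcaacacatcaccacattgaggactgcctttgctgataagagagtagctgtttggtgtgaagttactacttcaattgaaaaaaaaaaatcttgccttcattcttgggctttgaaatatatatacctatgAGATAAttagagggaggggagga
Hbb-bt +1.7 kb: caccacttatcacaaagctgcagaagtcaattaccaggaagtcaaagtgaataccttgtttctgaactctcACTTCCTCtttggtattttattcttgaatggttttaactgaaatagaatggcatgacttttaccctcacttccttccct
In the body of Hbb-bt (chr7:103813246-103813445), the printed stretch holds none of the motifs.
Hbb-bt +0.7 kb: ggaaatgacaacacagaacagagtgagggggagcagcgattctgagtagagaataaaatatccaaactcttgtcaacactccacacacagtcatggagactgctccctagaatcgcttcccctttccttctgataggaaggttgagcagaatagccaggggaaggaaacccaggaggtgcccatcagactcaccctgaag
Upstream of Hba-a1, in an intron of Nprl3 (chr11:32265177-32265426), the region with the most counts in the alpha-globin window outside start sites holds an NF-E2, a GATA and a RUNX motif.
Hba-a1 -18.2 kb: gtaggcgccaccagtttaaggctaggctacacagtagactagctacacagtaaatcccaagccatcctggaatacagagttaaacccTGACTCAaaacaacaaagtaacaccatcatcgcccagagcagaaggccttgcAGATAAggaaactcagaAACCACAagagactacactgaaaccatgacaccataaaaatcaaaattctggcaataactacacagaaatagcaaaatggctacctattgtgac

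The erythroid windows did not open as a whole in URE mice. In LSK, 6 of the 80 regions were higher and 10 were lower in URE than in WT, and in GMP 5 were higher and 14 lower. A region was called higher or lower when edgeR's quasi-likelihood test with Benjamini-Hochberg adjustment over all 121336 regions gave an adjusted p under 0.05 and the absolute log2 fold change was over 1. Over all regions 37.5% were called in LSK (13.6% higher and 23.9% lower) and 39.7% in GMP (15.6% higher and 24.1% lower), against 20% and 23.8% of the members. Away from start sites, 23.8% of the 63 member regions were called in LSK and 28.6% in GMP, beside 42.4% and 44.7% of all such regions. The median log2 fold change of the members was 0.14 in LSK and -0.04 in GMP, and that of all regions 0.14 and 0.06. Of the 24 regions called in either cell type, 3 were higher in both, 8 were lower in both and 0 were called in opposite directions.

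The direction of the calls depended in part on the scaling. With an offset for the GC content of each region, 13 members were higher and 8 lower in LSK and 6 higher and 12 lower in GMP. Over all regions this offset gave 22.2% higher and 20.4% lower in LSK and 22.1% and 19.8% in GMP. The share of all LSK calls that were higher went from 36.2% to 52.1% with it. Without the fold threshold, 25 members were higher and 16 lower in LSK and 23 were higher and 26 lower in GMP. Over all regions 27.9% were then higher and 28.9% lower in LSK, and 29.6% and 31.2% in GMP.

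**Figure D1:**
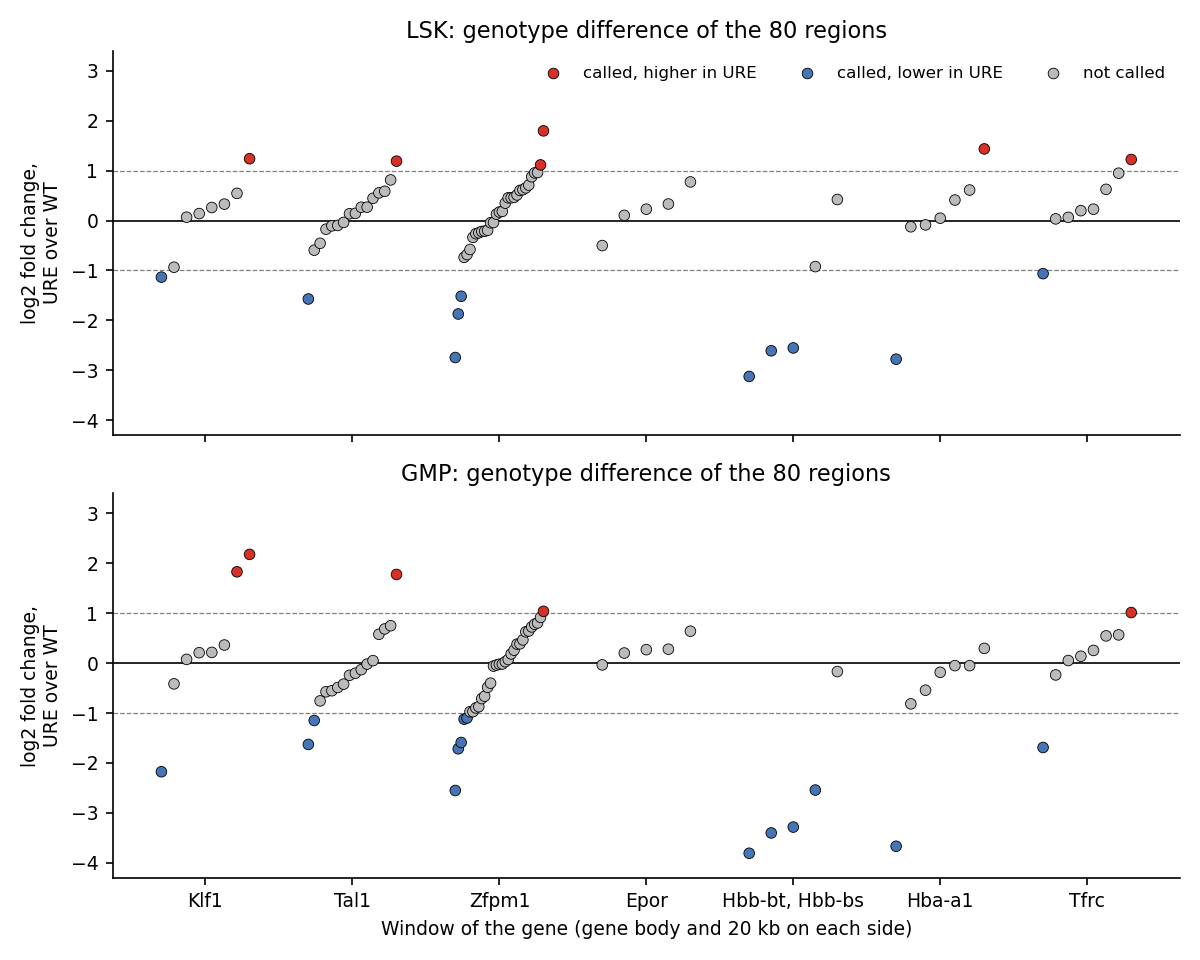
Each point is 1 of the 80 member regions, placed by the window of its gene along the horizontal axis and by the fitted log2 fold change of URE over WT on the vertical axis, in LSK (top) and GMP (bottom), with dashed lines at the threshold of 1. Red and blue points were called higher and lower. The points of the Hbb-bt and Hbb-bs windows reach -3.12 in LSK and -3.81 in GMP, and no point of the Epor window is coloured.

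At Klf1, whose product binds CACC boxes of the globin promoters, the region in the body of the gene (chr8:84902858-84903655, overlapping coding sequence, 1.3 kb downstream of the 5′ end) was open in every group. It had 42.2, 40.5 and 38.8 CPM in the WT-LSK libraries, 52.3, 51.0 and 49.3 across URE-LSK, 45.5, 44.1 and 44.9 across WT-GMP and 52.0, 51.6 and 52.5 across URE-GMP. Every URE library lay above every WT library of its cell type, by a small margin. The log2 fold change was 0.33 ± 0.07 (SE) in LSK and 0.21 ± 0.07 in GMP (edgeR adjusted p = 0.000656 and 0.0122), under the fold threshold, and no region lay within 500 bp of the Klf1 start site.

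A weak region in the Klf1 intron (chr8:84904501-84904748, 2.7 kb downstream of the 5′ end) rose in GMP of URE mice. It had 0.418, 0.441 and 0.369 CPM across WT-GMP and 1.96, 2.22 and 1.38 CPM across URE-GMP. The WT-LSK libraries held 8, 3 and 8 counts and the URE-LSK libraries 2, 0 and 9, so that it was close to the counting floor in LSK of both genotypes. The log2 fold change in GMP was 2.18 ± 0.44 (edgeR adjusted p = 0.000447), with no overlap between the libraries, and the difference between the genotype effects in GMP and LSK was 3.11 ± 0.81 (adjusted p = 0.0157), a test whose LSK side rests on at most 9 counts per library. Its highest level, 2.22 CPM in 1 library, was far below the 38.8 to 52.5 CPM of the neighbouring exon region.

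Another 2 regions of the Klf1 window were called in both cell types, in opposite directions to each other. The region 19.9 kb upstream of Klf1 (chr8:84881913-84882225), in an intron of Syce2, a gene of the meiotic synaptonemal complex, had 2.39, 3.26 and 2.59 CPM across WT-LSK, 6.92, 6.25 and 6.15 across URE-LSK, 0.795, 0.336 and 0.254 across WT-GMP and 1.61, 1.30 and 1.60 across URE-GMP. It was higher in URE in both cell types (1.24 ± 0.25 in LSK and 1.83 ± 0.32 in GMP, edgeR adjusted p = 0.000584 and 0.000131), and it fell from LSK to GMP in WT by 2.69 on the log2 scale (adjusted p = 4e-06). The region 11.7 kb downstream (chr8:84913533-84913817), in an intron shared by Dnase2a and Mast1, had 6.25, 6.49 and 5.73 CPM across WT-LSK, 3.19, 2.74 and 2.48 across URE-LSK, 7.82, 7.20 and 6.43 across WT-GMP and 1.59, 1.79 and 1.33 across URE-GMP. Every URE library was below every WT library, with a log2 fold change of -1.13 ± 0.18 in LSK and -2.18 ± 0.19 in GMP (edgeR adjusted p = 5.25e-05 and 1.79e-07). With the GC content offset the LSK difference was -0.73 and not called. The other 4 regions of the window, among them the promoters of Gcdh and Dnase2a, were not called in either cell type.

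At Tal1, which encodes a basic helix-loop-helix factor required for blood formation, the largest promoter region (chr4:115056391-115057864) was open in all groups. It had 46.2, 44.5 and 46.0 CPM across WT-LSK, 44.4, 47.5 and 41.3 across URE-LSK, 54.3, 44.7 and 50.4 across WT-GMP and 33.7, 37.0 and 35.6 across URE-GMP. The LSK groups overlapped, and the URE-GMP libraries lay below all WT-GMP libraries. The log2 fold change was -0.04 ± 0.09 in LSK (edgeR adjusted p = 0.72) and -0.49 ± 0.09 in GMP (adjusted p = 0.000137), under the fold threshold in both. The region over coding sequence 6.7 kb downstream (chr4:115062583-115063619), the strongest of the Tal1 window outside start sites, gave 0.14 ± 0.10 in LSK and -0.42 ± 0.10 in GMP (adjusted p = 0.244 and 0.00147), likewise with no call.

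Both cell types lost accessibility at a Tal1 upstream region and gained it at a downstream one. The upstream region with the composite motif printed above (chr4:115048295-115048659, 7.9 kb from the 5′ end) had 4.01, 5.14 and 4.60 CPM across WT-LSK, 1.5, 1.65 and 1.47 across URE-LSK, 5.56, 5.64 and 6.43 across WT-GMP and 2.17, 2.01 and 1.5 across URE-GMP. No URE library reached a WT library of its cell type, and the log2 fold change was -1.57 ± 0.20 in LSK and -1.63 ± 0.19 in GMP (edgeR adjusted p = 5.03e-06 and 3.25e-06). The intergenic region 23.1 kb downstream (chr4:115079403-115079615) had 0.918, 0.857 and 1.07 CPM across WT-LSK and 2.74, 1.90 and 1.90 CPM across URE-LSK. In GMP it was near the floor, with 4, 2 and 5 counts in WT and 16, 15 and 18 counts in URE. The groups did not overlap in either cell type, and the log2 fold change was 1.19 ± 0.31 in LSK and 1.78 ± 0.48 in GMP (adjusted p = 0.00417 and 0.00437). Without URE-LSK replicate 1 the LSK difference was 0.99 and not called.

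Within Tal1, a region over an annotated untranslated stretch of the gene (chr4:115071692-115071986, 15.4 kb downstream) fell in GMP of URE mice by 1.15 on the log2 scale (SE 0.20, edgeR adjusted p = 0.000138), from 3.77, 3.88 and 3.62 CPM to 1.61, 1.87 and 1.57 CPM. With the GC content offset this difference was -0.75 and not called.

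**Figure D2:**
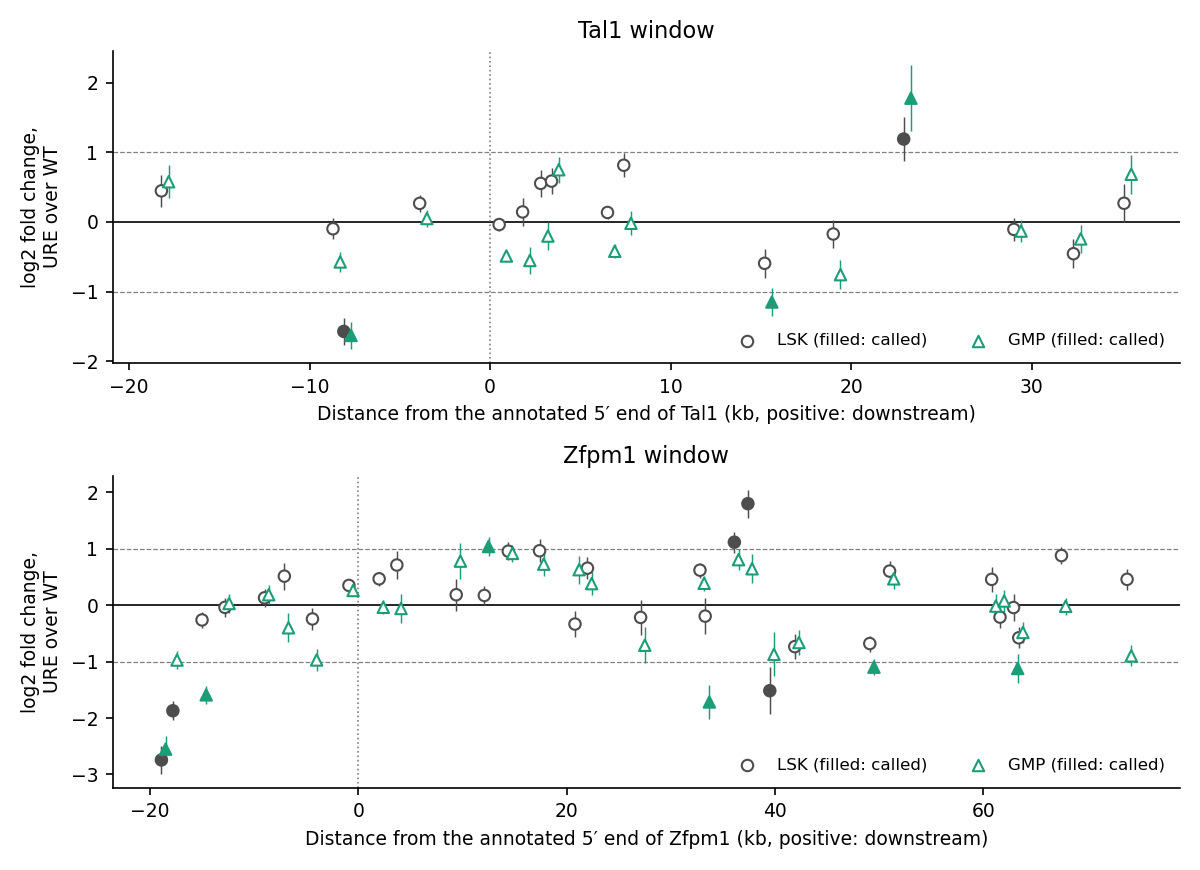
The fitted log2 fold change of URE over WT (vertical axis, bars show 1 SE) of every region in the Tal1 and Zfpm1 windows is drawn against the distance of the region from the annotated 5′ end of the gene in kb (horizontal axis). Circles are LSK, triangles GMP and filled symbols called regions, and dashed lines mark the threshold of 1. The called regions of Zfpm1 sit at the upstream edge of its window and from 12.3 kb downstream onwards, on both sides of 0.

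At Zfpm1, which encodes the GATA1 cofactor FOG-1, the promoter had the highest level of any member region. The promoter region (chr8:122280532-122282285) had 112, 106 and 100.2 CPM across WT-LSK, 143, 129.5 and 132 across URE-LSK, 112, 123 and 146 across WT-GMP and 146, 147 and 163 across URE-GMP. The URE libraries lay above the WT libraries of their cell type, narrowly so in GMP, and the log2 fold change was 0.35 ± 0.09 in LSK and 0.26 ± 0.09 in GMP (edgeR adjusted p = 0.00261 and 0.0158), under the fold threshold.

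Of the 31 regions at Zfpm1, 2 were higher and 3 lower in LSK, and 1 was higher and 5 lower in GMP. The clearest gain was the intronic region 37.6 kb downstream (chr8:122319314-122320137), with 4.20, 3.67 and 5.17 CPM across WT-LSK and 17.3, 12.1 and 16.1 CPM across URE-LSK. In GMP it had 2.55, 1.74 and 2.93 CPM in WT and 4.11, 2.53 and 4.63 CPM in URE. The LSK groups were far apart and the GMP groups overlapped, with log2 fold changes of 1.80 ± 0.25 and 0.64 ± 0.25 (edgeR adjusted p = 1.23e-05 and 0.0387, the latter under the fold threshold). The neighbouring region 36.3 kb downstream (chr8:122318094-122318781) had 5.35, 4.24 and 4.58 CPM across WT-LSK and 12.5, 7.37 and 10.9 CPM across URE-LSK (1.11 ± 0.19, adjusted p = 9.36e-05), and without URE-LSK replicate 1 this was 0.95 and not called. In GMP the region 12.3 kb downstream (chr8:122294194-122294631) rose from 5.98, 7.87 and 8.62 CPM in WT to 13.9, 16.1 and 16.4 CPM in URE (1.04 ± 0.16, adjusted p = 4.84e-05), while its LSK groups overlapped. This call was close to the threshold and gave 0.87 without WT-GMP replicate 1 and 0.89 with TMM on promoter regions. A region between them, 14.6 kb downstream and singled out after its values were seen, was just short of the threshold in both cell types (0.95 ± 0.16 in LSK and 0.92 ± 0.16 in GMP).

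The losses at Zfpm1 included its most distal upstream regions, which lie in an intron of the long predicted gene Gm20388. The region 18.7 kb upstream (chr8:122263141-122263693) had 5.62, 4.77 and 4.18 CPM across WT-LSK, 0.857, 0.670 and 0.641 across URE-LSK, 5.61, 4.26 and 3.62 across WT-GMP and 0.840, 0.798 and 0.630 across URE-GMP. All URE libraries were far below all WT libraries (-2.74 ± 0.24 in LSK and -2.55 ± 0.24 in GMP, edgeR adjusted p = 1.35e-07 and 3.91e-07). The next region, 17.6 kb upstream, was lower in LSK (-1.87 ± 0.17, adjusted p = 2.01e-07) and just short of the threshold in GMP (-0.97 ± 0.16, adjusted p = 7.9e-05), and that 14.8 kb upstream (chr8:122266931-122267738) was lower in GMP (-1.59 ± 0.16, adjusted p = 6.33e-07). In LSK the groups overlapped at this last region (-0.26 ± 0.15, adjusted p = 0.137). Its genotype effects in GMP and LSK differed by -1.33 ± 0.21 (adjusted p = 0.000711). Within the gene, the region 39.7 kb downstream was lower in LSK (-1.52 ± 0.41, adjusted p = 0.00516), and those 33.5 and 49.3 kb downstream and 63.1 kb downstream, past the end of the gene, were lower in GMP (-1.72, -1.10 and -1.12, adjusted p = 0.00014, 1.11e-05 and 0.00126).

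At Epor, the receptor for erythropoietin and the signal on which late erythroid progenitors depend, no region was called between the genotypes. The region with the most counts outside start sites (chr9:21962422-21962883, in an Epor intron 0.9 kb from the 5′ end) had 10.7, 11.1 and 14.1 CPM across WT-LSK, 15.9, 16.4 and 12.9 across URE-LSK, 9.87, 9.46 and 13.9 across WT-GMP and 10.8, 9.91 and 11.8 across URE-GMP. The groups overlapped in both cell types (0.33 ± 0.17 in LSK and -0.04 ± 0.17 in GMP, edgeR adjusted p = 0.106 and 0.864). The fitted values of the 5 regions lay between -0.50 and 0.77 in LSK and between -0.04 and 0.64 in GMP, and none lay within 500 bp of the Epor start site.

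The adult beta-globin genes Hbb-bt and Hbb-bs encode the beta chains of haemoglobin, and 4 of the 5 regions around them were lower in URE-GMP than in WT-GMP, 3 of them also in LSK. These were among the largest differences of the members. The region 4.9 kb downstream of Hbb-bt (chr7:103808948-103809313), between genes, had 8.19, 6.57 and 10.5 CPM across WT-LSK, 4.71, 5 and 3.67 across URE-LSK, 1.84, 1.34 and 3.66 across WT-GMP and 0.323, 0.278 and 0.606 across URE-GMP. It was thus highest in WT-LSK and lowest in URE-GMP, with no overlap between genotypes. The log2 fold change was -0.92 ± 0.31 in LSK (edgeR adjusted p = 0.0176, under the fold threshold) and -2.54 ± 0.39 in GMP (adjusted p = 3.72e-05). It fell from LSK to GMP by 1.88 on the log2 scale in WT and by 3.50 in URE, and these steps differed by -1.62 ± 0.49 (adjusted p = 0.0338). The call of that difference was lost without 7 of the 12 libraries in turn, and without WT-GMP replicate 3 its value was -0.99.

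The region 1.7 kb downstream of Hbb-bt (chr7:103812153-103812500), whose PU.1 motif is printed above, had 7.66, 5.75 and 9.29 CPM across WT-LSK and 1.05, 2.18 and 0.726 CPM across URE-LSK. In GMP it had 4.81, 3.27 and 4.77 CPM in WT and 0.387, 0.538 and 0.363 CPM in URE. The URE libraries were below the WT libraries throughout, by 5.75-fold in the LSK means and 9.98-fold in the GMP means (log2 fold change -2.55 ± 0.33 and -3.28 ± 0.36, edgeR adjusted p = 6.22e-06 and 1.78e-06).

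The bodies of both beta-globin genes were also lower in URE, in LSK and in GMP. The Hbb-bt region (chr7:103813201-103813490, coding exon) had 2.81, 3.06 and 2.45 CPM across WT-LSK, 0.357, 0.726 and 0.299 across URE-LSK, 3.10, 3.55 and 3.60 across WT-GMP and 0.301, 0.364 and 0.291 across URE-GMP. The Hbb-bs region (chr7:103827204-103827484, coding exon, within 500 bp of an annotated Hbb-bs start site) had 2.26, 3.18 and 2.41 CPM across WT-LSK, 0.214, 0.307 and 0.363 across URE-LSK, 2.55, 3.13 and 3.53 across WT-GMP and 0.151, 0.295 and 0.194 across URE-GMP. LSK and GMP differed little within a genotype, and the genotypes were wide apart. The log2 fold changes were -2.61 ± 0.29 and -3.12 ± 0.31 in LSK and -3.40 ± 0.30 and -3.81 ± 0.31 in GMP (edgeR adjusted p = 1.72e-06, 4.05e-07, 2.45e-07 and 1.29e-07). The sequences of these regions are identical at each of the 275 bases where they align, so reads from one gene could be counted at the other and the pair are not separate measurements. In URE the libraries held 7 to 26 counts at either region. The fifth region, 20.8 kb downstream of Hbb-bt, was not called (0.42 in LSK and -0.17 in GMP).

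**Figure D3:**
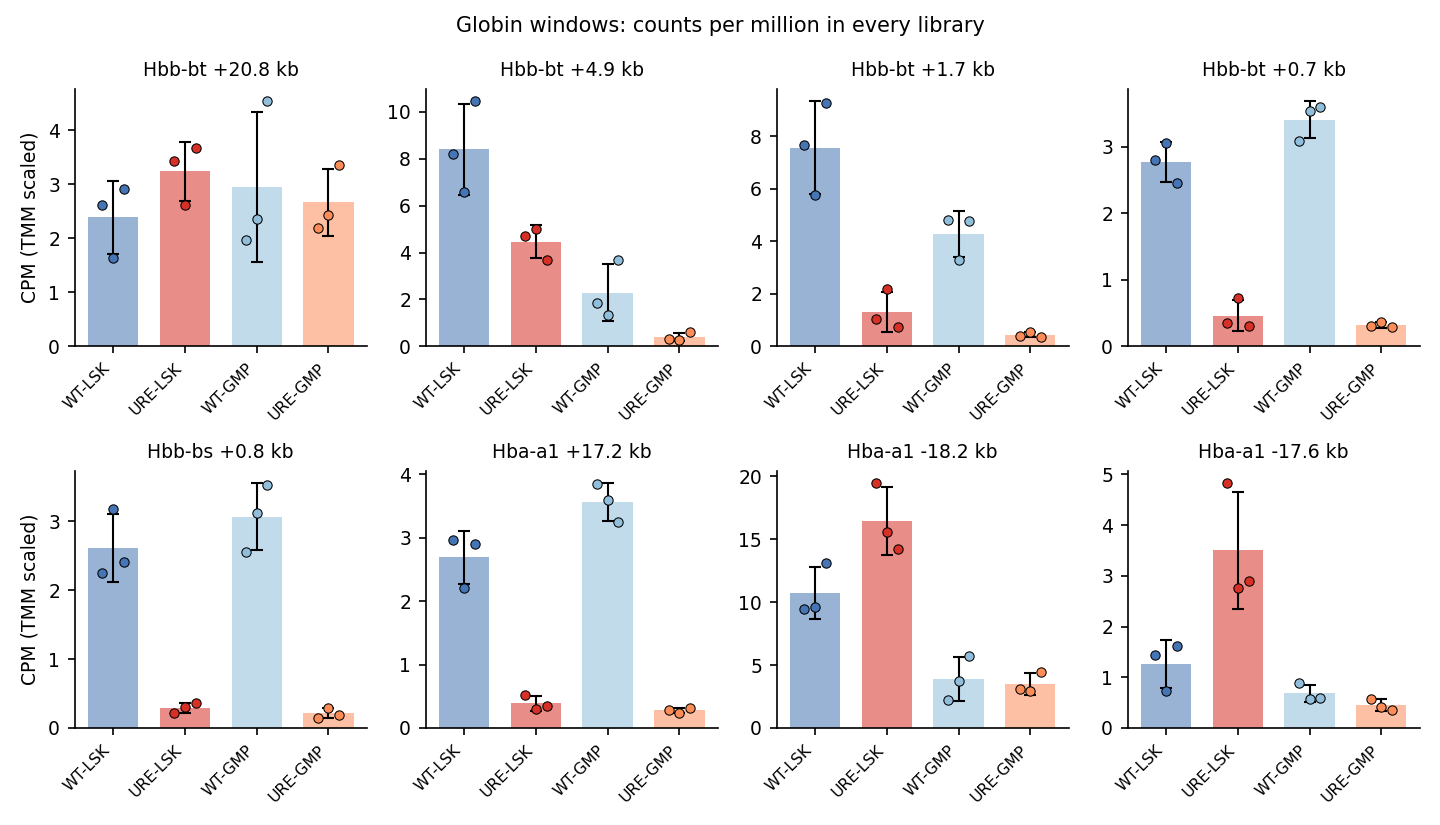
CPM (vertical axes, linear and starting at 0) is drawn by group (horizontal axes) for the 5 regions of the beta-globin windows and for 3 regions of the alpha-globin window. Points are libraries, bars are the means of 3 libraries and whiskers are the SD. At Hbb-bt +1.7 kb the URE-LSK libraries reach at most 2.18 CPM and the WT-LSK libraries start at 5.75 CPM, whereas at Hba-a1 -18.2 kb the URE-LSK libraries, from 14.2 CPM, lie above the WT-LSK ones.

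At Hba-a1, which encodes an alpha chain of haemoglobin, no region lay within 500 bp of the start site or over the gene itself. In the intron of Nprl3, a gene whose introns are known to hold distal elements of the alpha-globin cluster, the region 18.2 kb upstream (chr11:32265145-32265467) had 9.47, 9.63 and 13.1 CPM across WT-LSK, 19.5, 15.6 and 14.2 across URE-LSK, 2.26, 3.71 and 5.74 across WT-GMP and 3.12, 2.91 and 4.48 across URE-GMP. The URE-LSK libraries were all above the WT-LSK libraries and the GMP groups overlapped. The difference in LSK, 0.61 ± 0.26, did not pass the test (edgeR adjusted p = 0.052), and with the GC content offset it was 1.27 and called. In GMP it was -0.18 ± 0.27 (adjusted p = 0.574). The region fell from LSK to GMP in WT by 1.44 (SE 0.27, adjusted p = 0.000283) and in URE by 2.23 on the log2 scale (SE 0.27, adjusted p = 2.18e-06).

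Its weaker neighbour 17.6 kb upstream (chr11:32265764-32266064) rose in LSK of URE mice, from 1.44, 0.734 and 1.61 CPM to 4.83, 2.76 and 2.90 CPM (1.43 ± 0.31, edgeR adjusted p = 0.00103). In GMP it had 0.879, 0.567 and 0.599 CPM in WT and 0.581, 0.416 and 0.363 CPM in URE, where the groups overlapped, and the genotype effects differed by -1.98 ± 0.49 between the cell types (adjusted p = 0.0115). The region 17.2 kb downstream (chr11:32300614-32300879), over a coding exon of the globin gene Hbq1a, had 2.97, 2.20 and 2.90 CPM across WT-LSK, 0.523, 0.307 and 0.342 across URE-LSK, 3.85, 3.59 and 3.25 across WT-GMP and 0.280, 0.243 and 0.315 across URE-GMP. Every URE library was below every WT library (-2.78 ± 0.27 in LSK and -3.67 ± 0.27 in GMP, adjusted p = 3.07e-07 and 5.64e-08). The promoter regions of Hbq1b and Hbq1a, which are 97.3% identical over 263 bases, were not called, and neither were the Nprl3 promoter and a region between it and Hba-a1.

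At Tfrc, the promoter (chr16:32608601-32609746) was open at a similar level in all groups. It had 58.2, 56.0 and 50.5 CPM across WT-LSK, 67.8, 63.7 and 57.3 across URE-LSK, 70.7, 55.7 and 53.6 across WT-GMP and 61.4, 64.2 and 60.5 across URE-GMP. The groups overlapped in both cell types (0.20 ± 0.10 in LSK and 0.05 ± 0.10 in GMP, edgeR adjusted p = 0.1 and 0.671). Downstream, towards the kinase gene Tnk2, the intergenic region 33.6 kb from the 5′ end (chr16:32642363-32642751) was higher in URE, with 0.709, 1.06 and 0.965 CPM across WT-LSK, 2.38, 2.65 and 1.35 across URE-LSK, 0.586, 0.608 and 0.415 across WT-GMP and 1.25, 1.13 and 0.848 across URE-GMP. The genotypes did not overlap (1.22 ± 0.31 and 1.01 ± 0.33, adjusted p = 0.00326 and 0.0153), but the GMP call was lost without 6 of the 12 libraries in turn, with values down to 0.85 without WT-GMP replicate 3. The region 41.7 kb downstream (chr16:32650496-32650728), in a Tnk2 intron, was lower in URE, with log2 fold changes of -1.06 ± 0.32 in LSK and -1.69 ± 0.33 in GMP (adjusted p = 0.00978 and 0.000403), and with the GC content offset these values were -0.24 and -0.85 and not called. The strong Tnk2 region beside it, 42.3 kb downstream, had 27.4 to 33.9 CPM in LSK and 15 to 21.9 CPM in GMP and was not called (0.03 and -0.24).

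**Figure D4:**
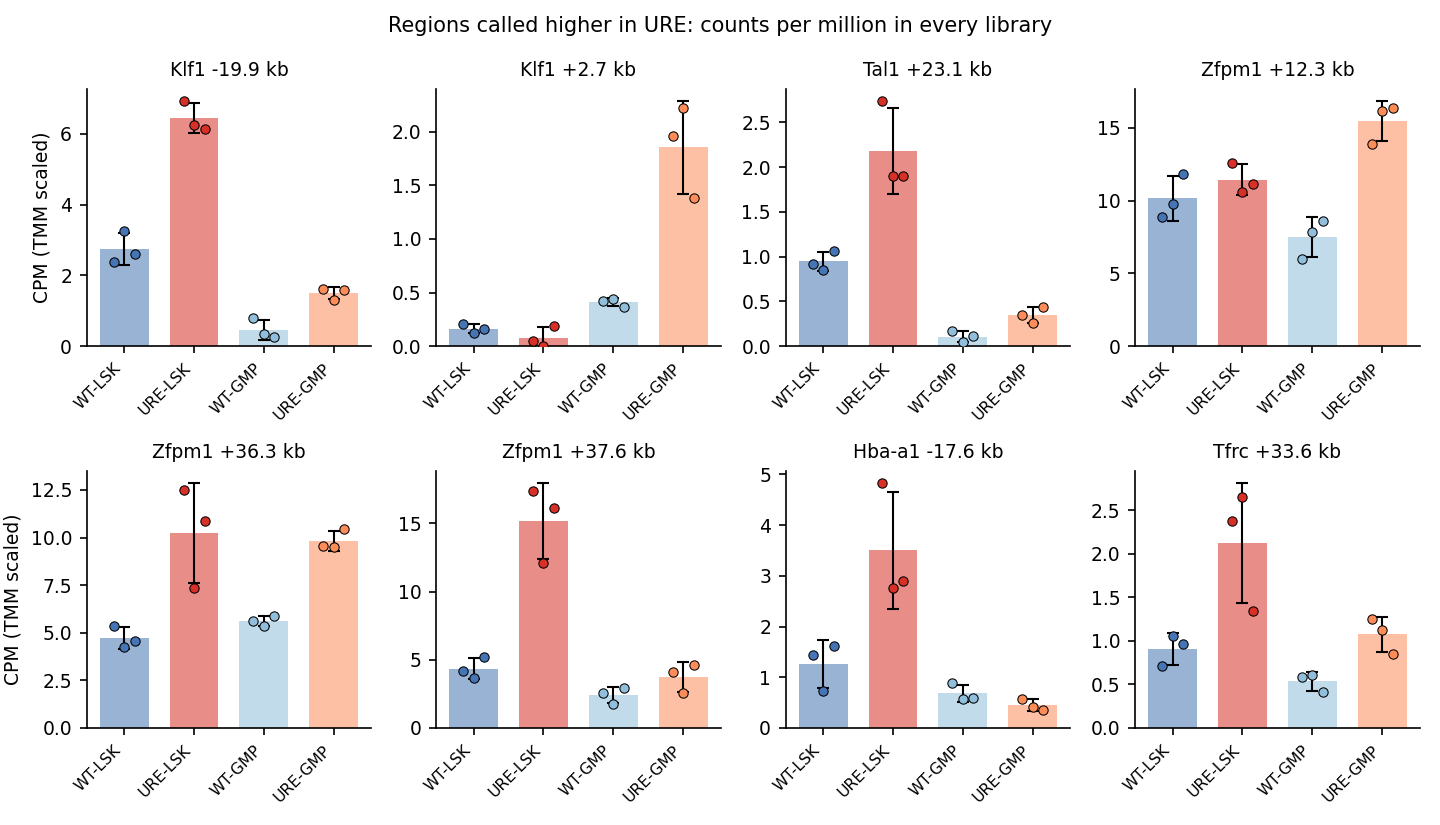
CPM (vertical axes, linear and starting at 0) is drawn by group (horizontal axes) for the 8 regions called higher in URE in LSK, in GMP or in both. Points are libraries, bars are the means of 3 libraries and whiskers are the SD. Levels differ between regions, from below 3 CPM in every library at Klf1 +2.7 kb, Tal1 +23.1 kb and Tfrc +33.6 kb to 17.3 CPM at Zfpm1 +37.6 kb in URE-LSK.

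The gains were thus found at 8 regions of 5 windows, none of them at a promoter of a member gene. The 8 regions were Klf1 -19.9 kb and +2.7 kb, Tal1 +23.1 kb, Zfpm1 +12.3, +36.3 and +37.6 kb, Hba-a1 -17.6 kb and Tfrc +33.6 kb. Of the 80 members, 17 had a mean below 1 CPM in at least 1 group, among them Klf1 -19.9 kb, Klf1 +2.7 kb, Tal1 +23.1 kb, Hba-a1 -17.6 kb and Tfrc +33.6 kb. Regions called lower were also among the 17, such as Hbb-bt +4.9 kb and +1.7 kb, the bodies of both beta-globin genes, Hba-a1 +17.2 kb and Tfrc +41.7 kb. When only regions with a mean of at least 2 CPM were tested, 2 members were higher in LSK and 1 in GMP, against 8 and 11 lower. Calls over all regions also became fewer with this filter, at 8.16% higher and 19.0% lower in LSK and 10.2% and 18.0% in GMP. Megakaryocyte markers, with regions near 5 of 6 genes and none at Gp6, summed to 169 to 202 CPM across WT-LSK and 224 to 236 across URE-LSK, but with 0 of their 15 regions called higher and 1 lower. The mean sum of Itga2b went from 69.7 to 108 CPM, while that of Pf4 was 22.7 and 16.8 CPM and that of Ppbp 20.8 and 14.6 CPM. In GMP 0 were called higher and 3 lower. Mast cell and basophil markers, with regions near 3 of 5 and none at Prss34 and Ms4a2, summed to 124 to 141 CPM across WT-LSK and 162 to 182 CPM across URE-LSK, with 3 of 12 regions called higher and 0 lower. The part of these cells in the gains was not tested.

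In the 20 kb windows more member regions fell than rose from LSK to GMP, in WT and in URE, where over all regions more rose than fell. With windows of 50 kb more regions rose in WT (below), so the statement covers the 20 kb windows only. In WT, 3 of the 80 regions rose and 8 fell (13.8% called, against 37.8% of all regions, 21.0% higher and 16.8% lower), and in URE 2 rose and 20 fell (27.5%, against 49.1% of all, 27.6% higher and 21.6% lower). Without WT-GMP replicate 3, 15 regions fell in WT in place of 8. The median step was -0.17 in WT and -0.40 in URE on the log2 scale. Of the 8 regions that fell in WT, 7 also fell in URE, and 2 were higher and 1 was lower in URE-GMP than in WT-GMP. Those 2 were Klf1 -19.9 kb and Tal1 +23.1 kb, which fell by 2.10 and 2.66 on the log2 scale in URE, beside 2.69 and 3.25 in WT. Their URE-GMP level therefore stayed below that of WT-LSK in every library. Over the 80 regions the steps in WT and URE, which share no library, had a Pearson correlation of 0.74 (Spearman 0.72), as a description across regions that are not independent. The genotype effect differed between GMP and LSK at 9 regions (1 higher and 8 lower, 11.2%, against 14.0% of all regions, 8.96% higher and 5.03% lower).

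**Figure D5:**
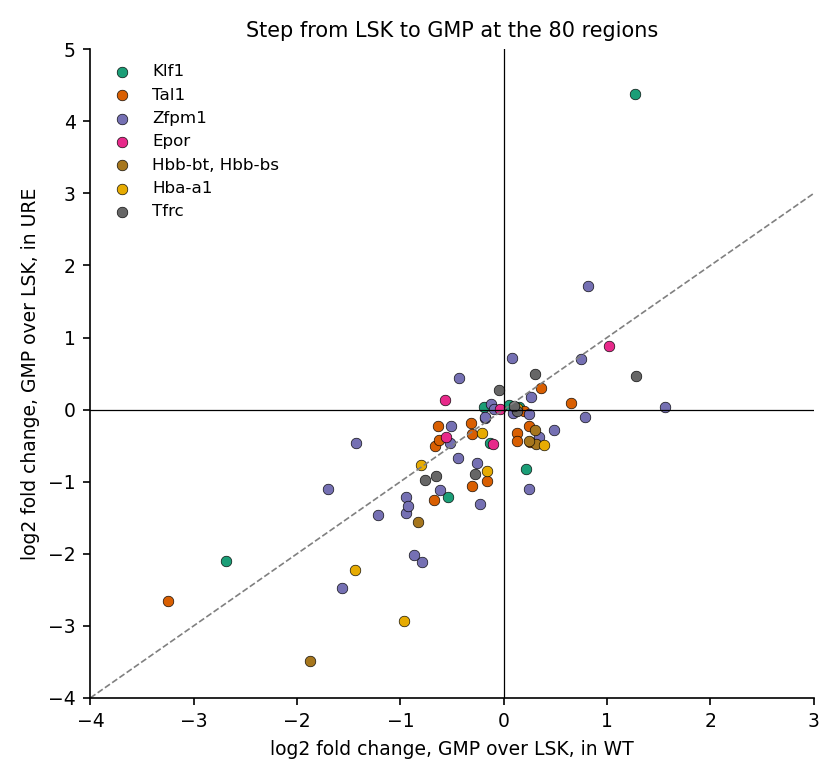
Each point is a member region, with its fitted log2 fold change of GMP over LSK in WT on the horizontal axis and in URE on the vertical axis, coloured by gene window, and the dashed line marks equal steps. In 54 of the 80 regions the point lies below the line, and the Klf1 region 2.7 kb downstream stands apart at 4.38 in URE and 1.27 in WT.

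Motif content was compared with that of all regions as a description. GATA motifs were found in 14 of 80 members (17.5%, against 15.7% of all regions), the composite motif in 2 (2.5% against 0.697%), among them Tal1 -7.9 kb, the KLF1 motif CCACACCC in 4 (5% against 5.16%), the E-box in 25 (31.2% against 26.5%) and the NF-E2 motif in 7 (8.75% against 11.5%). The PU.1 motif was in 9 (11.2% against 10.5%), the RUNX motif in 7 (8.75% against 17.3%) and the CEBP motif TTGCNNAA in 9 (11.2% against 20.5%). Of the 14 regions with a GATA motif, 1 was higher and 2 were lower in LSK, and 1 was higher and 2 were lower in GMP. Of the 9 with the PU.1 motif, 1 was lower in LSK and 3 were lower in GMP, namely Hbb-bt +4.9 kb, Hbb-bt +1.7 kb and Zfpm1 +49.3 kb, and 0 were higher. The 2 Hbb-bt regions are neighbours. Over all regions, with or without a motif, 13.6% were higher and 23.9% lower in LSK, and 15.6% and 24.1% in GMP. A link between a motif and the calls was not tested.

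A wider list of erythroid genes held more losses than gains, as did all regions. The list held 54 genes, among them genes for haem synthesis, the red cell membrane, other globins, transport and erythroid transcription factors. It also held genes outside these classes, such as Socs3, Cish, Pim1, Bcl2l1 and E2f2. Of the 54, 53 were in the annotation and 49 had regions in the same kind of window. Of their 504 regions, 45 were higher and 91 lower in LSK (8.93% and 18.1%, against 13.6% and 23.9% of all regions), and 62 were higher and 103 lower in GMP (12.3% and 20.4%, against 15.6% and 24.1%). With the GC content offset 84 were higher and 82 lower in LSK, and 82 and 80 in GMP. Their median log2 fold change was 0.19 in LSK and 0.09 in GMP. At least 1 region was higher in LSK at 23 genes and in GMP at 30, and at least 1 was lower at 34 and 36. These counts depend on the number of regions per gene, from 1 at Hba-a2 to 27 at Sox6. The same count over all genes was not made, so they say nothing particular to erythroid genes.

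The gain of this list with the smallest p in LSK was in Slc25a37, the mitochondrial iron importer mitoferrin, where an intronic region (chr14:69248672-69249005) went from 2.97, 2.77 and 2.88 CPM across WT-LSK to 15.8, 11.8 and 16.3 CPM across URE-LSK (2.34 ± 0.20, edgeR adjusted p = 9.62e-08) and was also higher in GMP (1.29 ± 0.19, adjusted p = 2.8e-05). Of the 16 regions of Slc25a37, 7 were higher and 3 lower in LSK. A region in the window of Xpo7, in an intron of Fgf17, and an intron of Bpgm, the gene of bisphosphoglycerate mutase, rose in LSK by 1.78 and 2.17 (adjusted p = 1.08e-06 and 1.57e-06). In GMP the gains with the smallest p lay in the windows of Alad, an enzyme of haem synthesis (1.77 ± 0.14, adjusted p = 7.31e-08, over an exon of Bspry), of Sptb, the beta spectrin of the red cell membrane (1.51 ± 0.15), and of E2f2, a cell cycle factor (1.42 ± 0.15). The losses with the smallest p in LSK were in introns of Tmcc2 (-4.64 in LSK and -3.09 in GMP), Ank1, the ankyrin of the red cell membrane (-4.81 and -3.99), and Klf3 (-4.74 and -4.76). In GMP an intergenic region 12.6 kb upstream of Ank1 had the smallest p of the losses (-4.22 ± 0.28, edgeR adjusted p = 2.02e-08, and -2.46 ± 0.26 in LSK), followed by the same Ank1 and Klf3 introns. At Klf3 the region had 7.22, 7.14 and 8.53 CPM across WT-LSK and 0.167, 0.447 and 0.256 CPM across URE-LSK.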

How the data were processed

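ATAC-seq libraries of sorted mouse bone marrow cells (4 groups of 3, grouped by the submitters' labels) were used. The authors deposited raw counts per region, not normalized. Per the study's methods, bowtie2 had aligned reads to GRCm38, duplicates and non-primary chromosomes had been removed, and Genrich had called peaks per group. The sources used here do not give what was counted, fragments or read ends. Region starts were taken as counted from 0 and are printed counted from 1.

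Counts were fitted with edgeR 4.0.16 in R 4.3.3 (TMM, quasi-likelihood, 1 coefficient per group, all 12 libraries, two-sided, Benjamini-Hochberg over 121336 regions). filterByExpr removed 0 regions. Calls needed an adjusted p under 0.05 and an absolute log2 fold change over 1, as in the methods of the study. Regions named were the strongest promoter region, the strongest other region and every called region of each member gene, and for the wider list the 3 with the smallest p in each direction and contrast. Some marker and region results are not reported here. The members and lists were chosen with earlier results of these data known. Copies of member regions were sought with blastn 2.17.0+ (at least 95% identity over 100 bases), which found one for 5 of 80 regions.

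Same-numbered libraries were checked for pairing by the correlation of their deviations from the group means. These were 0.181, 0.191 and 0.207 between WT-LSK and WT-GMP, but -0.0616 to 0.102 between the genotypes in LSK and 0.0997 to 0.349 in GMP. The fit was checked on simulated data with known changes. Alternatives were DESeq2 1.42.0, other scalings (RLE, library size only, TMM on promoters, loess, GC content offsets), filters, thresholds, windows of 5 and 50 kb, fits of 2 groups, the replicate block, and leaving out each library.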

Additional observations from a re-analysis of the deposited data

Results flagged for a closer look

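At 9 of the 80 regions the difference between genotypes was not the same in GMP and LSK, by edgeR's quasi-likelihood test of the interaction with Benjamini-Hochberg adjustment over all regions and the same fold threshold. Over all regions 14.0% passed this test. The difference between the effects (GMP minus LSK, log2) was 3.11 at Klf1 +2.7 kb and -1.04 at Klf1 +11.7 kb. It was -1.62 at Hbb-bt +4.9 kb and -1.98 at Hba-a1 -17.6 kb. At Zfpm1 it was -1.33 at -14.8 kb, -1.52 at +33.5 kb, -1.15 at +37.6 kb, -1.08 at +63.1 kb and -1.35 at +74.0 kb. In 8 of the 9 the log2 fold change of URE over WT was thus lower in GMP than in LSK, and the exception was the weak Klf1 intron region. At Zfpm1 +37.6 kb this was a smaller gain and not a loss (1.80 in LSK and 0.64 in GMP). At Zfpm1 +74.0 kb neither single contrast was called (0.46 in LSK and -0.90 in GMP). The calls at Zfpm1 -14.8 kb and +74.0 kb also held at an adjusted p under 0.01, and the other 7 did not. With glmTreat, which tests against a log2 difference of 1, none of the 9 was called. Leaving out 1 library in turn gave 3 to 7 lower calls among the members in place of 8, the fewest without URE-LSK replicate 1. Of these 12 fits, 10 lost the call at Zfpm1 +63.1 kb, 8 at Zfpm1 +37.6 kb and 7 at Hbb-bt +4.9 kb. At Zfpm1 +33.5 kb 6 lost it, and at Klf1 +11.7 kb 5. The calls at Klf1 +2.7 kb, Hba-a1 -17.6 kb, Zfpm1 -14.8 kb and Zfpm1 +74.0 kb were kept in all 12.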

How the results depend on the processing

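Of 102 differences of single regions, all 102 kept direction and call with the replicate block, and 99 did with DESeq2 and with RLE size factors. The fit without the filter repeated the main fit, since filterByExpr had removed 0 regions, and so it tests nothing. With DESeq2, small values changed sign at Epor +0.9 kb in GMP (0.024), Tal1 +0.7 kb in LSK (0.0076) and Zfpm1 +63.1 kb in LSK (0.0044), and RLE gave 0.025, 0.0084 and 0.0037. GC content offsets gave 13 higher members in LSK and 84 higher regions of the wider list, and reversed Tal1 +6.7 kb in LSK (-0.022) and, in GMP, Hba-a1 -18.2 kb (0.46), Tfrc +0.3 kb (-0.045) and Tfrc +42.3 kb (0.12). With the replicate block added to these offsets the values were 13 and 88, and -0.024, 0.48, -0.038 and 0.12. TMM on promoter regions gave 3 higher in GMP, and -0.045 at Tal1 +6.7 kb, -0.15 at Tfrc +42.3 kb and -0.013 at Zfpm1 +12.3 kb in LSK and -0.080 at Tfrc +0.3 kb in GMP. Library size only gave 3 higher in GMP, -0.064 at Tfrc +0.3 kb in GMP and -0.090 at Tfrc +42.3 kb in LSK. Loess offsets gave 72 higher in LSK for the wider list, in LSK -0.073 at Tal1 +6.7 kb, -0.062 at Tfrc +0.3 kb, -0.13 at Tfrc +42.3 kb, 0.25 at Klf1 +2.7 kb, 0.49 at Zfpm1 +33.5 kb and 0.22 at Zfpm1 +63.1 kb, and in GMP -0.034 at Zfpm1 -0.7 kb, -0.17 at Tfrc +0.3 kb and 0.15 at Hba-a1 -17.6 kb. The fit of 2 groups gave -0.020 at Tfrc +42.3 kb in LSK.

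An adjusted p under 0.01 left 0 higher and 2 lower in the interaction. Windows of 5 kb held 41 regions and those of 50 kb held 130. Windows of 5 kb gave 2 higher and 4 lower in LSK, 2 and 7 in GMP, 4 lower in the WT step, 1 higher and 11 lower in the URE step and 3 lower in the interaction. Windows of 50 kb gave 12 and 20 in LSK, 9 and 24 in GMP, 12 higher in the WT step, 11 higher in the URE step and 5 higher in the interaction. glmTreat gave 1 higher in LSK, 2 in GMP, 1 higher and 5 lower in the WT step, 10 lower in the URE step, 0 and 0 in the interaction, and 23 and 30 higher for the wider list in LSK and GMP. A mean CPM of at least 2 gave 2 higher in LSK, 1 in GMP, 1 in each step, 0 higher and 3 lower in the interaction, 19 higher and 57 lower for the wider list in LSK and 35 and 60 in GMP, and -0.0091 at Tal1 +6.7 kb and -0.11 at Tfrc +42.3 kb in LSK and -0.0095 at Tfrc +0.3 kb in GMP. Without the fold threshold 25 and 16 were called in LSK, 23 and 26 in GMP, 8 and 28 in the WT step, 6 and 35 in the URE step, 3 and 13 in the interaction, and 144 and 155 higher for the wider list. The cause of these shifts was not tested, beyond the smaller or larger number of regions that the filters, thresholds and windows admit by construction.

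Leaving out each library in turn gave 4 to 8 higher and 10 to 11 lower in LSK, 4 to 5 and 13 to 17 in GMP, 2 to 4 and 8 to 15 in the WT step (15 without WT-GMP replicate 3), 2 to 3 and 19 to 23 in the URE step, and 1 to 3 and 3 to 7 in the interaction, where the full fit called 8 lower. For the wider list it gave 35 to 51 and 89 to 97 in LSK and 59 to 62 and 93 to 104 in GMP, and for the deleted element -10.50 to -8.72 in LSK and -10.94 to -9.81 in GMP. Signs changed in this way at Epor +0.9 kb (-0.15 to 0.18), Hba-a1 -18.2 kb (-0.47 to 0.20) and Tfrc +0.3 kb (-0.0060 to 0.15) in GMP, and at Tal1 +0.7 kb (-0.12 to 0.012), Tfrc +42.3 kb (-0.061 to 0.12), Zfpm1 +33.5 kb (-0.37 to 0.0040) and Zfpm1 +63.1 kb (-0.12 to 0.017) in LSK. The replicate block gave 6 higher and 10 lower in LSK and 5 and 14 in GMP, as without it. At 0.0173 to 0.0418 CPM per count, the regions near 0 in a group rest on a few counts.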

Other observations

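Distal elements outside the windows were looked at after the data had been seen, taking for each gene the regions with the most counts between 20 and 50 kb from the gene body and away from start sites. The strongest lay 39.7 kb downstream of the Tal1 5′ end (chr4:115095372-115096880), where an erythroid enhancer of Tal1 is known. It had 60.7, 57.4 and 78.4 CPM across WT-LSK, 68.9, 67.3 and 61.4 across URE-LSK, 28.9, 21.8 and 37.9 across WT-GMP and 17.3, 15.2 and 20.3 across URE-GMP. The LSK groups overlapped (log2 fold change 0.01 ± 0.16), and the URE-GMP libraries were all below the WT-GMP libraries (-0.75 ± 0.17, edgeR adjusted p = 0.00111, under the fold threshold). It fell from LSK to GMP by 1.15 on the log2 scale in WT and by 1.90 in URE. On the other side of Tal1, a region 21.2 kb upstream in an intron of Stil had 1.21, 1.84 and 1.69 CPM across WT-LSK and 3.71, 3.54 and 5.72 CPM across URE-LSK (1.47 ± 0.23, adjusted p = 5.41e-05).

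Upstream of the beta-globin genes, a region 33.0 kb from the Hbb-bs 5′ end (chr7:103860976-103861266), on the side of the locus control region and beyond Hbb-y, had 6.80, 8.08 and 8.16 CPM across WT-LSK, 11.1, 10.2 and 10.4 across URE-LSK, 5.56, 5.35 and 6.59 across WT-GMP and 6.63, 5.74 and 7.56 across URE-GMP. It was not called between the genotypes (0.46 ± 0.16 in LSK and 0.18 ± 0.16 in GMP, edgeR adjusted p = 0.0208 and 0.332). On the other side, an intergenic region 51.4 kb downstream of the Hbb-bt 5′ end (chr7:103762336-103762877) had 9.08, 9.26 and 8.77 CPM across WT-LSK, 2.40, 4.02 and 2.97 across URE-LSK, 5.02, 5.92 and 8.76 across WT-GMP and 0.775, 0.729 and 0.848 across URE-GMP. It was lower in URE in both cell types, with no overlap (-1.53 ± 0.22 in LSK and -3.07 ± 0.25 in GMP, edgeR adjusted p = 2.48e-05 and 1.18e-07). In a Tnk2 intron 52.6 kb downstream of the Tfrc 5′ end, a region rose in LSK of URE mice from 4.70, 2.94 and 5.43 CPM to 10.5, 7.01 and 9.36 CPM (1.03 ± 0.22, adjusted p = 0.000915). The other region taken at Tfrc, 57.3 kb downstream, was not called between the genotypes (0.42 in LSK and -0.44 in GMP). Neither were any of those taken at Klf1, Epor, Zfpm1 and Hba-a1, in either cell type. With windows of 50 kb, which held 130 regions, 12 regions were higher and 20 lower in LSK, and 9 were higher and 24 lower in GMP. Over all regions the shares were 13.6% higher and 23.9% lower in LSK, and 15.6% and 24.1% in GMP.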
